A study of Mus musculus with 2 samples.

Results

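The genes of the mitochondrial ribosome were defined as the protein-coding genes of GENCODE M21 whose symbol is Mrpl or Mrps followed by a number and, for some, a letter. This rule gave 78 genes of 21938 protein-coding genes, 49 named Mrpl for the large subunit and 29 named Mrps for the small subunit. The accessibility of their promoters was compared between mouse mammary organoids treated with doxycycline (DOX) or with ethanol (EtOH), in which open chromatin of single nuclei was read by scATAC-seq. A promoter was taken as the sum of all regions within 1 kb of an annotated transcription start site (TSS) of the gene that had a peak in both libraries.

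The mitochondrial ribosome translates the few proteins that the mitochondrial genome encodes, all of them subunits of the oxidative phosphorylation complexes. Its own proteins are encoded in the nucleus, made in the cytosol and imported. Tetracyclines such as doxycycline bind the small subunit of bacterial ribosomes and also inhibit translation in mitochondria, so a doxycycline-inducible model carries the question whether the drug itself moves this gene set. The assay reads nuclear chromatin, and translation was not measured here.

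The organoids of both groups were of the strain C57BL/6J and of the genotype shTRPS1.34 ki/+; CAG-rtTA3 tg/+. In these mice a cassette of a tetracycline response element, turboGFP and an shRNA against Trps1 sits in the Col1a1 locus, and the rtTA3 transactivator is driven by the ubiquitous CAG promoter, which the study found not to induce the cassette in every cell. Both groups therefore carried the shRNA cassette, and they differed in doxycycline at 0.1 µg/ml or ethanol for 7 days. The organoids grew in Matrigel in a medium with Neuregulin, Noggin and R-spondin, and cells of several mice were mixed before loading. In this design the effect of doxycycline as a drug and that of the shRNA it induces cannot be told apart, and each group is 1 library, so no comparison between the groups has a replicate check. All intervals given are 95% intervals of counting error only.

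The DOX library held 3071 cells and 224762118 counts, and the EtOH library 3104 cells and 211963715 counts. Levels are given in CPM, a promoter's counts after each library's counts in shared regions were scaled to a total of 1000000, and ratios as log2 of DOX over EtOH. The 2 libraries had 23 cell barcodes in common. They stood apart in their cells: 1 cluster with accessible immune genes held 1278 DOX cells (41.6%) and 280 EtOH cells (9.02%). Of its 6 immune markers 5 were more accessible than in the other cells, led by Tyrobp (log2 fold 6.36), while the T cell gene Cd3e was not (-0.29). The summed promoter level of the 6 markers over all cells was 103 CPM in DOX and 33.3 CPM in EtOH. None was at 0. The other cells also fell into different clusters, the largest with 72 DOX and 1729 EtOH cells and the next with 1511 and 35. Each main value below is therefore given with and without the immune-like cells, and the part of the cell makeup in the results was not tested. The Trps1 promoter, upstream of the gene that the shRNA targets at the RNA, stood at 40.4 CPM in DOX and 25.3 CPM in EtOH (ratio 0.68, and 0.35 without the immune-like cells), which does not check the knockdown.

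The promoter sequences show the letters that this gene set shares. RefSeq windows of 300 bases, from 250 before to 50 after the gene start (GRCm38.p6), were found for 69 of the 78 genes. The letters of NRF1 (GCGCNTGCG), a regulator of nuclear genes for mitochondria, were in 26.1% of these windows, against 14.1% of 9950 windows of other promoters with like counts and 6.59% of 27025 windows in all. The ETS letters (CCGGAAG) were in 36.2%, 18.2% and 9.12%, and those of YY1 (AAGATGGC) in 17.4%, 4.58% and 2.88%. All 3 thus had their highest share in the mitochondrial ribosome genes. GGGCGG, the letters of SP1, were in 49.3% of the windows, against 66.0% and 35.9%. The shares for CCAAT were 39.1%, 38.5% and 37.9%, for the E-box CACGTG 7.25%, 10.2% and 7.24%, for the CRE TGACGTCA 2.9%, 3.38% and 1.88%, and for TATAAA 5.8%, 6.5% and 14.2%. Both strands were searched, and a match is a description of the letters only.

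Shown are stretches directly upstream of the first exon of the gene with the highest DOX over EtOH ratio (Mrpl52, chr14:54426759-54426908), the second highest (Mrpl33, chr5:31613789-31613938) and the lowest (Mrps6, chr16:92058120-92058269), and of 3 genes with known roles, Mrpl12 (chr11:120484463-120484612), Mrpl45 (chr11:97315566-97315715) and Mrps12 (chr7:28741822-28741971, minus strand, the others plus). Each lies inside a region with a peak in both libraries. The order refers to the sum over all regions of a gene: the Mrpl33 and Mrps6 stretches lie in the regions at the coding starts, with ratios of 0.39 and 0.24, and the other regions of these genes, described below, have other ratios. Capitals mark matches to the motifs searched, an ETS match in Mrpl52, CCAAT in Mrpl33 and Mrps12, SP1 in Mrps6 and Mrps12, and NRF1 in Mrpl12 and Mrpl45. The sequences are from RefSeq, read 5′ to 3′ along the gene.
Mrpl52: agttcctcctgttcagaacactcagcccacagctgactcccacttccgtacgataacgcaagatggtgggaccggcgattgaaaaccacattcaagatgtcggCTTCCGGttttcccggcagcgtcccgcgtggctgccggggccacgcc
Mrpl33: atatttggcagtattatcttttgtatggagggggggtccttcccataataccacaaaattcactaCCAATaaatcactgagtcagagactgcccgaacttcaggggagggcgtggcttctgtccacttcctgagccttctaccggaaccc
Mrps6: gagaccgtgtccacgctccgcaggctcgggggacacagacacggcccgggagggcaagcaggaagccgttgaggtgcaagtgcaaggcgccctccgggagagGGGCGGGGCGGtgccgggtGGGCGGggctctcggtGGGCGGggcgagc
Mrpl12: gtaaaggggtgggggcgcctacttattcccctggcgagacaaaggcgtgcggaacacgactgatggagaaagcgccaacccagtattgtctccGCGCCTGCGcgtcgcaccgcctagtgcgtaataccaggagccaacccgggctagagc
Mrpl45: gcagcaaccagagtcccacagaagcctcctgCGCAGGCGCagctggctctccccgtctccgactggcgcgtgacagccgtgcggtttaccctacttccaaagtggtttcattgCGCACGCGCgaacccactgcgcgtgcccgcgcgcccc
Mrps12: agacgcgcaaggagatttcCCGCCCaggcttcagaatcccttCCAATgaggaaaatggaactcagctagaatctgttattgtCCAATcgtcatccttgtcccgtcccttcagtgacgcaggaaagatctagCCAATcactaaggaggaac

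All 78 genes had a shared region with a TSS inside it, against 74.6% of all protein-coding genes with a shared region within 1 kb, and all passed the minimum of 100 counts over both libraries. The regions near their starts numbered 109, of which 100 were shared and 9 had a peak in 1 library only. One shared region lay at 60 of the genes and more than 1 at 18. Mrps11 and Mrpl46 start in the same region and have the same values, so that there are 77 distinct promoters. A TSS of another protein-coding gene lay in the regions of 32 of the 78 (41.0%), against 20.9% of other promoters of like counts, and for these genes the reads cannot be assigned to either gene.

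The promoters of the mitochondrial ribosome genes were open in both libraries, with a median of 31.9 CPM in DOX and 29.7 CPM in EtOH. The lowest was Mrpl3, a core protein of the large subunit, at 8.58 CPM in DOX and 7.60 CPM in EtOH. Mrpl16 and Mrps18a followed, with 12.6 and 13.3 CPM in EtOH. The highest was Mrpl48 at 136 CPM in DOX and 123 CPM in EtOH, a sum of 3 shared regions. The largest of these also holds a start of Rab6a, and no coding transcript of Mrpl48 starts in it. Mrps18b (79.8 CPM in EtOH, beside Ppp1r10) and Mrpl41 (77.6 CPM, beside Pnpla7) came next. The spread between genes within a library was thus about an order of magnitude, while the plot of levels in the 2 libraries shows each gene close to the line of equal values.

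**Figure D1:**
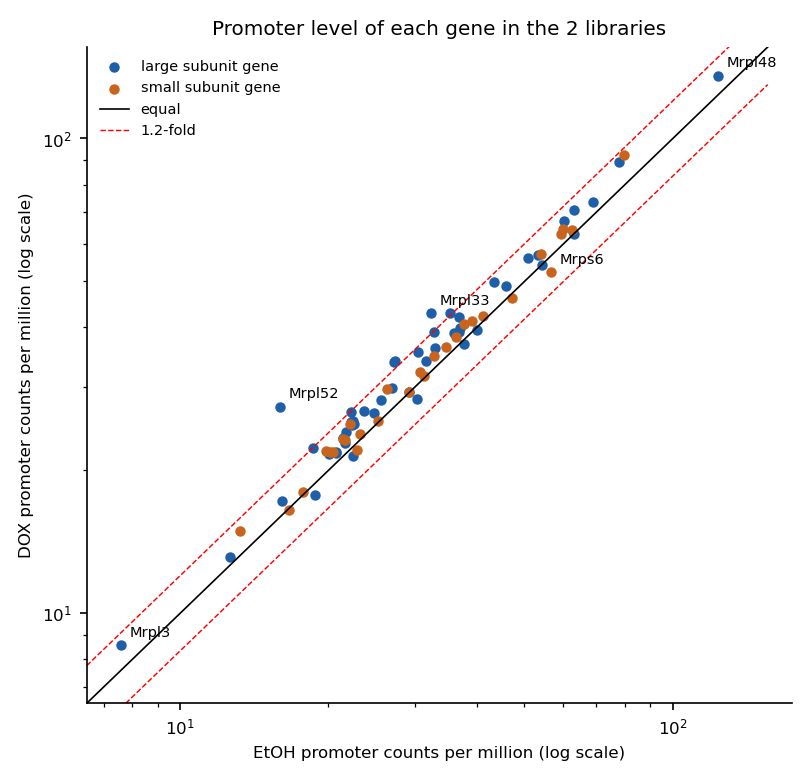
Promoter CPM of each of the 78 genes in EtOH (x axis) and DOX (y axis), both on log scales, with 1 point per gene coloured by subunit, a line of equal values and dashed lines at a 1.2-fold difference. The points run from Mrpl3 (7.60 CPM in EtOH) to Mrpl48 (123 CPM), and Mrpl52 and Mrpl33 lie farthest above the line.

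Across the 78 genes the median log2 ratio of DOX over EtOH was 0.11, with the middle 50% of genes between 0.06 and 0.17. The 12747 other promoters of like counts, those with a total between the lowest (3349) and the highest (53571) of the mitochondrial ribosome genes, had a median of 0.11 and a middle 50% from -0.02 to 0.21. The difference of the medians was -0.0024. Over all 16361 promoters tested the median was 0.09. The ratio was above 0 in 67 of the 78 mitochondrial ribosome genes. It was above 0 in smaller parts of the other sets, 9259 of the 12747 promoters of like counts and 10804 of the 16361. The ratios of the mitochondrial ribosome genes were also closer together, with an SD between genes of 0.12 against 0.32 for the promoters of like counts. For promoters between the quartiles of their counts the SD was 0.25. Without the immune-like cells it was 0.11 against 0.17 for promoters of like counts, and within the immune-like cells it was close, 0.15 against 0.16. The counting interval was above 0 for 54 genes, below 0 for 2 (Mrpl21 and Mrps6) and held 0 for 22. Such intervals were not counted over other promoters, so these counts do not set the genes apart.

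A 2-fold difference in either direction was reached by 0 of the 78 genes, against 5.1% of all promoters tested. A 1.2-fold higher level in DOX was reached by 5 genes (6.41%), where 18.1% of all promoters reached it, and a 1.2-fold lower level by 0, where 16.7% did. Among the promoters of like counts, which hold fewer sparse promoters, these shares were 1.69%, 15.6% and 10.6%. The 5 genes were Mrpl52, Mrpl33, Mrpl57, Mrpl11 and Mrpl49, all named for the large subunit.

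**Figure D2:**
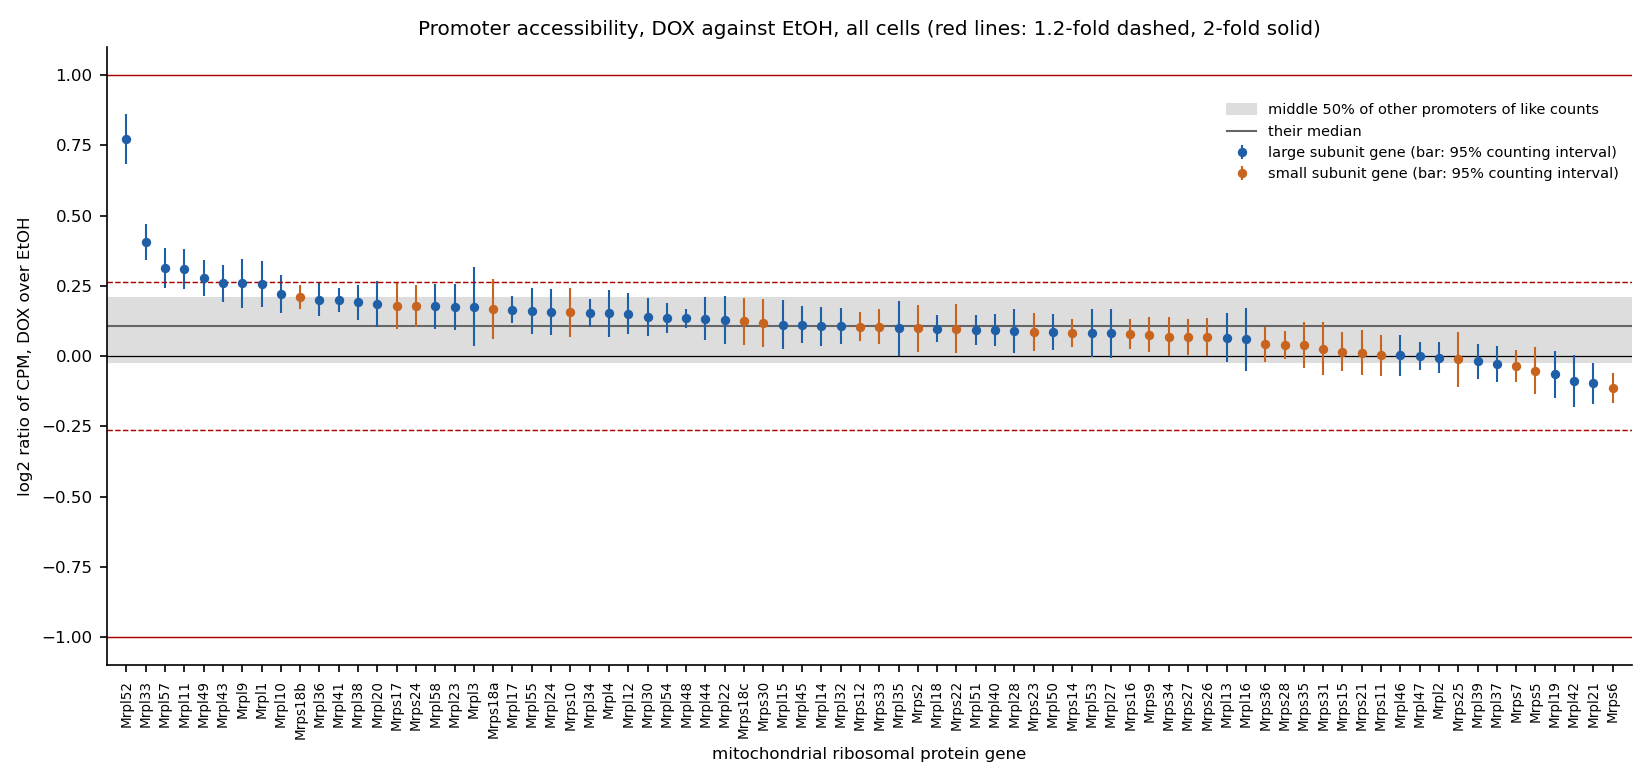
Log2 ratio of promoter CPM in DOX over EtOH (y axis) for each of the 78 genes (x axis), sorted, with bars for the 95% counting interval, a grey band for the middle 50% of other promoters of like counts and red lines at 1.2-fold and 2-fold. Most genes lie inside the band, and the range runs from 0.77 (Mrpl52) to -0.11 (Mrps6).

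Mrpl52, the gene of a large subunit protein particular to the mitochondrial ribosome, stood at 27.3 CPM in DOX and 15.9 CPM in EtOH, a log2 ratio of 0.77 (0.68 to 0.86). The gene has 7 annotated starts, and its only region, chr14:54426126-54427316, holds the sequence printed above. Without the immune-like cells it stood at 16.8 CPM in DOX and 15.3 CPM in EtOH, a ratio of 0.14 (0.03 to 0.26). Immune-like cells had 62.2% of its counts in DOX and 10.8% in EtOH, where they had 38.9% and 6.86% of all counts in shared regions. Within the immune-like cells it stood at 43.6 CPM in DOX and 25.1 CPM in EtOH, a ratio of 0.80 (0.58 to 1.04). Mrpl52 is thus the gene whose ratio dropped most without these cells, and the one with the highest ratio inside them.

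Mrpl33 encodes a small protein of the large subunit with a bacterial homologue. It stood at 42.9 CPM in DOX and 32.3 CPM in EtOH, a ratio of 0.41 (0.34 to 0.47). Leaving out the immune-like cells gave 50.7 CPM in DOX and 32.6 CPM in EtOH, a ratio of 0.64 (0.57 to 0.71), so that Mrpl33 moved most in the opposite direction to Mrpl52. Its level is a sum over 4 shared regions that did not move together. The region at the coding starts, chr5:31613620-31614518, held 3847 counts in DOX and 2782 in EtOH, a ratio of 0.39 (0.29 to 0.49) over all cells and 0.21 (0.09 to 0.34) without the immune-like cells. The region at chr5:31596413-31597360, where a transcript without a coding sequence starts, held 3790 and 1561 counts, a ratio of 1.198 (1.08 to 1.32) and, without those cells, 1.68 (1.56 to 1.81). Of the 4 regions this one had the highest ratio in both sets of cells. The region at chr5:31655517-31656418 had fewer counts in DOX (807) than in EtOH (1520).

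Mrpl57 (33.7 CPM in DOX and 27.2 in EtOH, ratio 0.31) and Mrpl49 (42.8 and 35.3 CPM, ratio 0.28) share their regions with Ska3 and Fau, and their ratios without the immune-like cells were 0.10 and 0.11. Mrpl11, the protein at the base of the ribosomal stalk, stood at 33.9 and 27.4 CPM, a ratio of 0.31 (0.24 to 0.38), and kept 0.21 (0.12 to 0.29) without these cells. Of the 5 genes past 1.2-fold in all cells, Mrpl33 alone remained past it without them, and at its coding starts it did not (0.21).

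At the low end, Mrps6, a small subunit protein with a bacterial homologue, stood at 52.3 CPM in DOX and 56.6 CPM in EtOH, a ratio of -0.11 (-0.17 to -0.06). Its 3 shared regions also went different ways over all cells. At the coding start, chr16:92057735-92058663, the ratio was 0.24 (0.16 to 0.31). Slc5a3 and Gm49711 also start in this region or in the one beside it, chr16:92059131-92059821, which stood at -0.81 (-1.02 to -0.61). A region with a further annotated start, chr16:92105391-92106306, stood at -0.43 (-0.52 to -0.35). With the immune-like cells left out, these 3 regions stood at 0.08 (-0.01 to 0.17), -0.37 (-0.58 to -0.15) and 0.07 (-0.02 to 0.15). Mrpl21 (28.3 CPM in DOX and 30.3 in EtOH, ratio -0.10), beside Ighmbp2, Mrpl42 (17.7 and 18.8 CPM, ratio -0.09), Mrpl19 (21.5 and 22.5 CPM, ratio -0.06) and Mrps5 (22.1 and 22.9 CPM, ratio -0.05) followed. Without the immune-like cells the ratio was 0.03 for Mrps6, -0.01 for Mrpl21 and 0.04 for Mrps5. For Mrpl42 and Mrpl19 it was -0.08 and -0.07.

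The regions of a gene were also taken one by one. The region with the most counts in EtOH had a median ratio of 0.11 over the 78 genes and lay between -0.10 and 0.77, with 0 past 2-fold. The 22 further shared regions, with a median of 2937 counts over both libraries against 11709 for the first, had a median of -0.02 and ran from -1.01 to 1.198. Of these 22, 5 (22.7%) passed the 1.2-fold line upwards and 6 (27.3%) downwards, where 30.2% and 35.5% of 10993 such further regions of all promoters tested did. With the immune-like cells left out 3 and 5 did, against 20.3% and 28% of such regions. Ratios this far apart were thus no more frequent at the mitochondrial ribosome genes than at promoters in general. The lowest over all cells was 890 bp from a start of Mrpl2, at chr17:46644548-46645339, where DOX had 1358 counts and EtOH 2581 (ratio -1.01), and it stood at -0.92 (-1.08 to -0.76) without the immune-like cells, where the region at the Mrpl2 start itself was at -0.04. The lowest without the immune-like cells was 35 bp from a start of Mrpl23, at chr7:142534557-142535613, with 417 counts in DOX and 441 in EtOH. It stood at -0.16 (-0.44 to 0.12) over all cells and at -1.98 (-2.52 to -1.48) without the immune-like cells. A further region of Mrps5, chr2:127590530-127591399, stood at -0.85 over all cells and the region at its coding start at 0.14. Without the immune-like cells these 2 stood at -0.36 (-0.56 to -0.16) and 0.16 (0.05 to 0.27). The regions were singled out after their values were seen. Of the 9 regions with a peak in 1 library only, 6 were in DOX and 3 in EtOH, with 81 to 2221 counts, and no ratio was given for them.

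**Figure D3:**
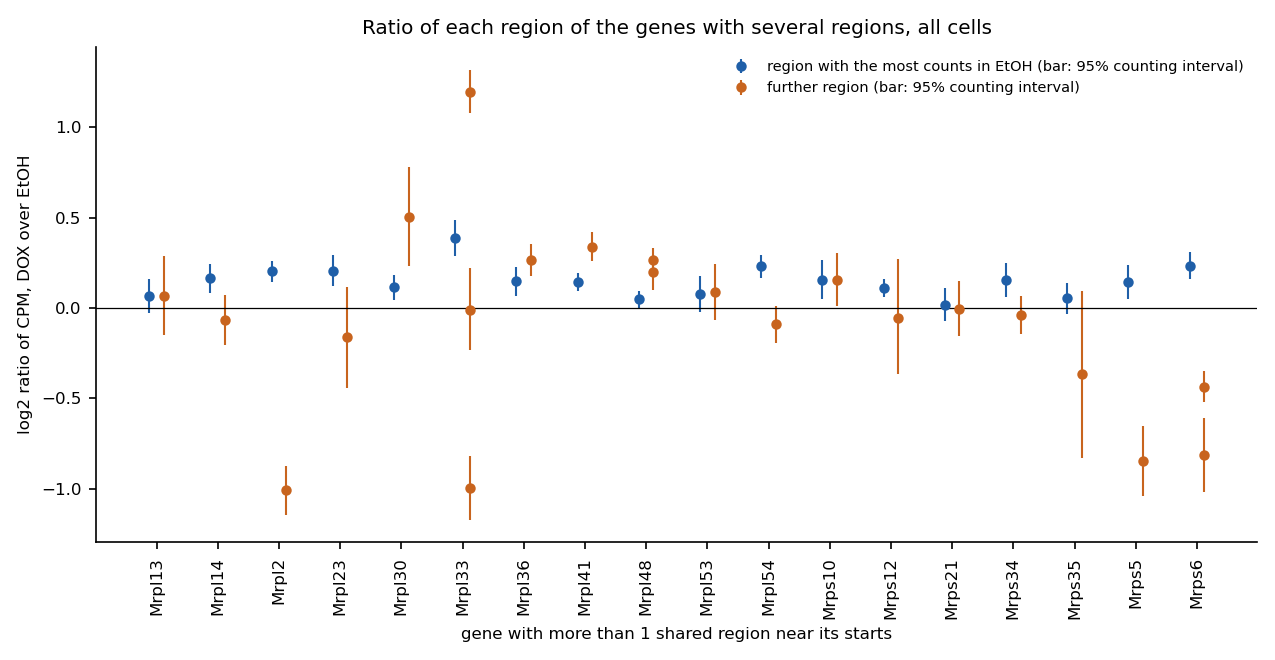
Log2 ratio of DOX over EtOH (y axis) of each shared region of the 18 genes with more than 1 such region (x axis), with bars for the 95% counting interval. The regions with the most counts in EtOH (blue) lie between 0.02 (Mrps21) and 0.39 (Mrpl33), and the further regions (orange) between -1.01 (Mrpl2) and 1.198 (Mrpl33).

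The large subunit genes had a median ratio of 0.13 and the small subunit genes of 0.08, with ranges that overlap over most of their length. By current structures, the products of Mrps18a and Mrps30 belong to the large subunit despite their symbols, so the division follows the names and not the particle. Among proteins with bacterial homologues in the small subunit, Mrps12, part of the decoding centre, shares its main region with Sars2. Mrps12 stood at 64.4 CPM in DOX and 59.8 in EtOH, a ratio of 0.11 (0.06 to 0.16) over all cells and 0.20 (0.14 to 0.26) without the immune-like cells. Mrps2 had a ratio of 0.10, Mrps15 of 0.02 and Mrps7, which starts beside Gga3, of -0.03. The paralogues Mrps18a (0.17), Mrps18b (0.21) and Mrps18c (0.12) had ratios whose intervals overlap over all cells. Outside the immune-like cells they stood at -0.03 (-0.16 to 0.10), 0.03 (-0.02 to 0.08) and 0.15 (0.05 to 0.25). Mrps27, which has RNA-binding repeats, and Mrps30 stood at 0.07 and 0.12.

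In the large subunit, the stalk proteins Mrpl10 and Mrpl12 stood at 35.5 and 29.9 CPM in DOX and at 30.4 and 26.9 CPM in EtOH, ratios of 0.22 and 0.15. Outside the immune-like cells these were 0.01 and -0.04, both with intervals that hold 0. Mrpl3 (0.17), Mrpl4 (0.15), Mrpl14 (0.11) and Mrpl18 (0.10) are core proteins with bacterial homologues, and of these Mrpl4 kept 0.20 (0.11 to 0.30) without the immune-like cells, while Mrpl3 stood at -0.04, Mrpl14 at 0.06 and Mrpl18 at 0.04. Proteins added in mitochondria were in the same range, with Mrpl44, which has an RNase III fold, at 0.13, Mrpl45, which holds the ribosome at the inner membrane, at 0.11, and Mrpl37 at -0.03. Mrpl58, a peptidyl-tRNA hydrolase that frees stalled ribosomes, stood at 26.7 CPM in DOX and 23.6 in EtOH, a ratio of 0.18 (0.10 to 0.26), and at 0.07 without the immune-like cells. Among the others of both subunits named here, Mrps2 (0.08), Mrps15 (-0.02), Mrps7 (-0.02), Mrps27 (0.02), Mrps30 (0.02), Mrpl44 (-0.02), Mrpl45 (-0.01) and Mrpl37 (-0.0016) were all within 0.1 of 0 without these cells.

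Without the immune-like cells the median ratio of the 78 genes was 0.01, that of all 16266 promoters tested was 0.02 and that of promoters of like counts 0.02. A 2-fold difference was reached by 0 of the 78 (background 1.57%), a 1.2-fold higher level by 1, Mrpl33 (background 8.91%), and a 1.2-fold lower level by 0 (background 7.59%). Among promoters of like counts these shares were 0.287%, 4.98% and 3.41%. The value of Mrpl33 rests on the region where its transcript without a coding sequence starts (1.68): with coding starts only, an alternative added after seeing the data, its ratio was 0.21 and 0 of the 78 genes were past 1.2-fold in either direction. The counting interval was above 0 for 14 genes, below 0 for 3 and held 0 for 61, again without a count over other promoters. The lowest ratios were those of Mrpl2 (-0.21) and Mrpl23 (-0.17), sums in which the regions at the gene starts stood at -0.04 (-0.11 to 0.04) and -0.06 (-0.16 to 0.05) and the regions beside them at -0.92 and -1.98. For 63 of the 78 genes the ratio was lower than over all cells. Most of the small upward shift of the median seen over all cells was thus absent here, both in the mitochondrial ribosome genes and in the promoters around them. Since the remaining DOX and EtOH cells lie mostly in different clusters, these values still compare different mixtures of cells.

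Within the immune-like cells the median ratio was -0.04, as over all 14719 promoters tested (-0.04). A 2-fold difference was reached by 0 of the 78 (background 1.28%), a 1.2-fold higher level by 2, Mrpl52 and Mrpl19 (background 9.76%), and a 1.2-fold lower level by 3, Mrpl42, Mrps2 and Mrpl45 (background 6.22%). These are 2.56% and 3.85% of the genes, and among promoters of like counts the shares were 0.148%, 3.74% and 3.2%. For Mrpl19 the ratio was 0.26 with an interval from -0.01 to 0.55, so that it was not distinguishable from 0 at this depth. Outside them, 4 clusters had at least 35 cells of each library and over 100 in all, although the minimum planned was higher than 35. In the luminal progenitor-like cluster (72 DOX and 1729 EtOH cells) the median ratio was 0.04, against 0.02 for all promoters tested there. This name is uncertain: of its markers Lalba (2.86), Csn3 (1.86), Kit (1.73), Elf5 (0.49) and Aldh1a3 (0.32) were more accessible than in other cells. Ltf (-1.77), Cd14 (-0.36) and Trf (-0.16) were less so. At a finer resolution the name went to 11 DOX and 605 EtOH cells, and a cluster of 46 and 1023 was named fibroblast-like. In the larger of the hormone-sensing luminal-like clusters (96 and 482 cells) the median ratio was 0.09 against 0.07. In the unnamed clusters it was 0.04 against -0.04 (1511 and 35 cells) and -0.04 against 0.01 (67 and 121 cells). The 35 EtOH cells had a median depth of 18512 counts, against 73235 for the DOX cells of that cluster. They held 2708 counts over all regions of the 78 genes, so the single ratios there are imprecise. In the cluster of 67 and 121 cells the summed counts of the genes, as a part of promoter counts, had a ratio of -0.05 (-0.09 to -0.0031). In the other 3 clusters this interval held 0. The other hormone-sensing luminal-like cluster had 5 DOX cells.

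The genes were more accessible in immune-like cells than in the others. Of the 78, 64 had the higher level in immune-like cells in both libraries and 8 the lower in both. The median log2 fold of immune-like over other cells was 0.25 in DOX and 0.34 in EtOH, against 0.28 and 0.40 for other promoters, so this too was close to the level of promoters at large. Across the 78 genes, the fold in the EtOH library and the ratio of DOX over EtOH had a Pearson r of 0.59 and a Spearman rho of 0.69, and r was 0.76 over the 76 genes without Mrpl52 and Mrpl33. The genes share both libraries, and EtOH counts enter both measures, so this is a description and no test.

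**Figure D4:**
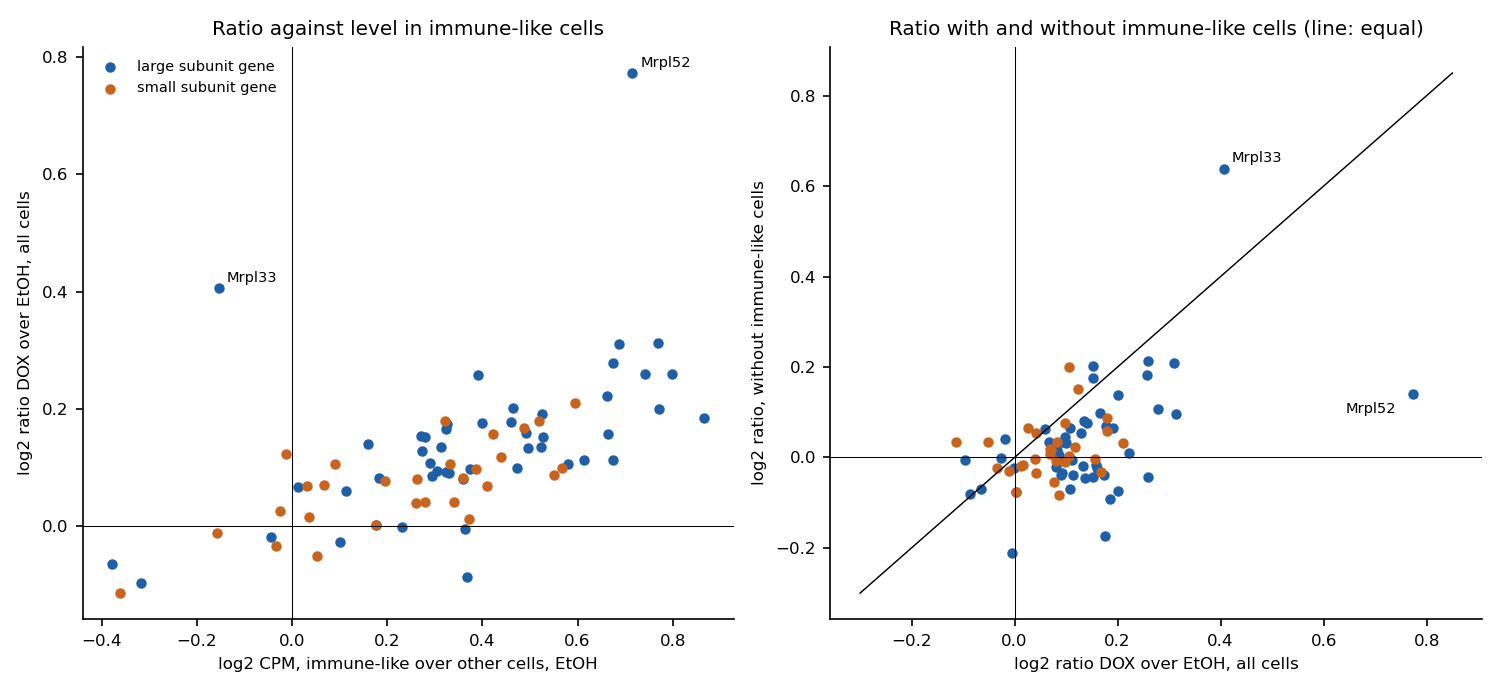
Left, log2 ratio of DOX over EtOH in all cells (y axis) against the log2 fold of immune-like over other cells within EtOH (x axis). Right, the same ratio with (x axis) and without (y axis) the immune-like cells, with a line of equal values. Each point is 1 of the 78 genes, and 63 of them lie below the line on the right.

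Summed over all regions, the mitochondrial ribosome promoters took 0.288% of the counts in DOX and 0.266% in EtOH, a log2 ratio of 0.11 (0.11 to 0.12), where all promoters together had a ratio of 0.09. As a part of promoter counts alone the ratio was 0.03 (0.02 to 0.03) over all cells, 0.01 (-0.00041 to 0.02) without the immune-like cells and -0.01 (-0.03 to 0.01) within them. The share per cell had a median of 0.287% in DOX and 0.264% in EtOH. For cells outside the immune-like cluster these were 0.266% and 0.259%, and for immune-like cells 0.319% and 0.331%. The middle 50% of cells overlapped between the libraries in each of these sets. After thinning each cell to 20000 counts, which left out 344 DOX and 351 EtOH cells, a count at the promoter was seen in a median of 27.9% of DOX and 25.8% of EtOH cells (59.8% and 55.9% before thinning). The largest differences in this share were again those of Mrpl52 and Mrpl33, 8.95 and 7.84 percentage points higher in DOX.

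The other gene groups of mitochondrial translation gave values of the same size. They are not fully separate from the mitochondrial ribosome genes, since the synthetase gene Sars2 shares its region with Mrps12. The 14 translation factor genes had a median ratio of 0.05 over all cells and -0.02 without the immune-like cells, from Guf1, a mitochondrial elongation factor (0.35), to Mtif2, the initiation factor (-0.11). The 15 genes for assembly of the ribosome had medians of 0.14 and -0.003, led by Rbfa (0.42) with Mrm2 lowest (-0.06). The 19 aminoacyl-tRNA synthetase genes that charge mitochondrial tRNAs had medians of 0.13 and 0.04, with Fars2 at 0.29 and Kars at -0.07. All 3 groups had 0 genes past 2-fold (background 5.1%) and 0 at least 1.2-fold lower over all cells (background 16.7%). At least 1.2-fold higher were 1, 4 and 1 genes (background 18.1%). Outside the immune-like cells all 3 had 0 genes past 1.2-fold in either direction (background 8.91% higher and 7.59% lower). Guf1 and Rbfa then both stood at 0.07, Fars2 at 0.20, Mtif2 at -0.12 and Kars at -0.21.

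The products of mitochondrial translation are assembled with nuclear-encoded subunits. For the groups below, the background over all cells was 18.1% of promoters at least 1.2-fold higher and 16.7% lower. Without the immune-like cells it was 8.91% and 7.59%. Twnk, Ndufs6 and Ndufb5 in these groups share a region with Mrpl43, Mrpl36 and Mrpl47. The 77 nuclear genes of oxidative phosphorylation subunits that were tested had a median of 0.10 over all cells and 0.01 without the immune-like cells, and 7 were at least 1.2-fold higher and 0 lower over all cells, with Ndufa13 at 0.42 and Atp5e at -0.13. In the cells outside the immune-like cluster 1 was higher, Atp5g2 at 0.27 (0.21 to 0.32), and 0 lower, with Ndufa13 at 0.18 and Atp5e at 0.02. The 73 tested genes of the cytosolic ribosome, which makes all other proteins of the cell, had medians of 0.14 and 0.01, 3 genes at least 1.2-fold higher, Rpl14 highest (0.46) and Rpl6 lowest (-0.07). Leaving out the immune-like cells, 0 were past 1.2-fold, and Rpl14 stood at 0.02 and Rpl6 at -0.09. The 16 regulators of mitochondrial biogenesis had medians of 0.13 and 0.03. Polg, the mitochondrial DNA polymerase, was highest (0.30) and Ppargc1a, a coactivator of mitochondrial genes, lowest (-0.07), and without the immune-like cells Polg stood at 0.09 and Ppargc1a at 0.44 (0.33 to 0.54), the 1 gene of this group then past 1.2-fold.

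The mitochondrial stress response is the programme of ATF4 targets, chaperones and proteases that cells are known to switch on when translation in mitochondria is inhibited. Its 24 tested genes had a median of 0.12 over all cells and 0.02 without the immune-like cells, with 0 past 2-fold (background 5.1% over all cells). At least 1.2-fold higher were 3 genes (background 18.1%), with Shmt2, a serine and glycine enzyme, highest at 0.34 (0.08 without the immune-like cells). At least 1.2-fold lower were 2 (background 16.7%). These were Phgdh, the first enzyme of serine synthesis (7.58 CPM in DOX and 10.8 in EtOH, ratio -0.51), and Psat1, which follows it (ratio -0.32). Without the immune-like cells Phgdh stood at -0.16 and Psat1 at -0.41, then the 1 gene at least 1.2-fold lower. The 1 gene at least 1.2-fold higher was then Trib3, a target of ATF4, at 0.30 (0.21 to 0.39), against 0.20 over all cells. The transcription factor gene Atf4 stood at 0.20 and 0.05.

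**Figure D5:**
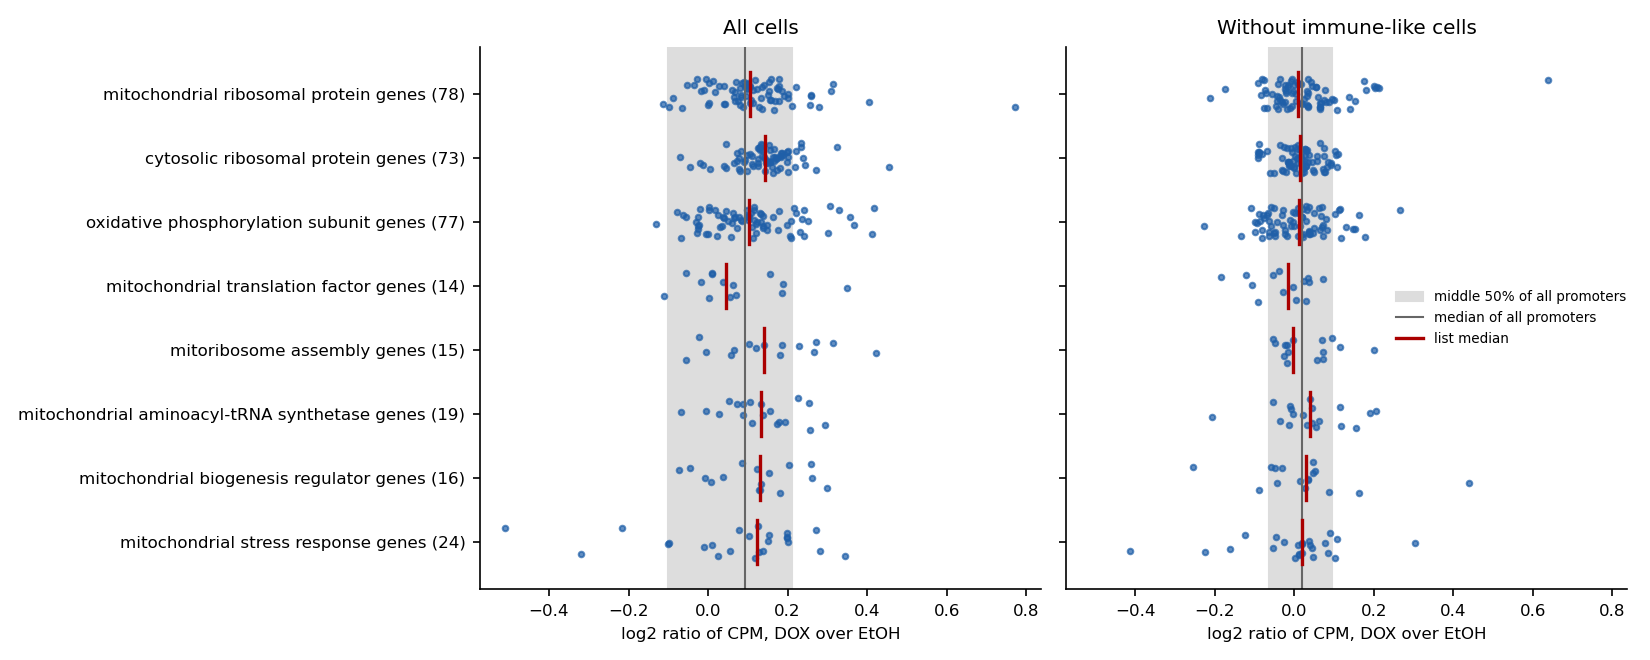
Log2 ratio of promoter CPM in DOX over EtOH (x axis) for the genes of 8 groups (y axis, number of genes tested in brackets), in all cells (left) and without immune-like cells (right). Each point is 1 gene, red bars are group medians, and the grey band and line are the middle 50% and the median of all promoters; the group medians lie between 0.05 and 0.14 on the left and between -0.02 and 0.04 on the right.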

How the data were processed

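Chromatin accessibility of single nuclei was measured in 1 DOX and 1 EtOH library, grouped by the sample labels. The authors deposited whole-number counts of transposition events per peak and cell, made per the file headers with Cell Ranger ATAC 2.0.0, with peaks called in each library alone on mm10. The study's methods name another version of this tool. Nothing had been normalized. Peaks overlapping by at least 1 bp were merged, and regions with a peak in both libraries (174940 of 275294, with 94.5% of DOX and 94.7% of EtOH counts) were summed over cells and scaled to CPM. Promoters needed 100 counts over both libraries. Intervals are exact conditional binomial 95% intervals on counts divided by 2, since both ends of a fragment are counted. This code was tested on simulated data.

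Cells were reduced by latent semantic indexing (components 2 to 30), joined to 15 neighbours and clustered with Leiden (resolution 0.5). No doublets were called or removed. Cells of median depth 69693 (DOX) and 63508 (EtOH) counts in shared regions were used.

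A legend of the study names wild-type mice for this experiment, while the labels, followed here, name the shRNA genotype. The members and gene lists were chosen with earlier results of these data known. Named were the 5 highest and 5 lowest ratios among genes with at least 200 counts, the 3 highest and lowest EtOH levels, the genes that changed most without immune-like cells, genes with known roles, and the extremes of each list. RefSeq windows were not used for 9 genes without an entry. Python 3.11.15, numpy 2.4.6, scipy 1.17.1, pandas 2.3.3, scikit-learn 1.9.0, leidenalg 0.10.2 and matplotlib 3.10.9 were used.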

Additional observations from a re-analysis of the deposited data

How the results depend on the processing

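No paired analysis was possible because there is a single library in each group. The difference between the median of the mitochondrial ribosome genes and that of promoters of like counts moved by less than the median counting half-width of a gene (0.072) under every alternative tried, the narrower choice of like counts (-0.017), made after seeing the data, included. The count of genes at least 1.2-fold lower was 0 under each alternative over all cells or without immune-like cells, and 3 in immune-like cells only. Within the luminal progenitor-like and the larger hormone-sensing luminal-like cluster it was 5 (6.41%) and 1 (1.28%), against 17.5% and 8.13% of all promoters. In the unnamed clusters it was 22 (28.2%, 1511 and 35 cells) and 17 (21.8%, 67 and 121 cells), against 32.3% and 13.6%. The median of the 78 genes, 0.11, was 0.0085 without immune-like cells, 0.0101 without them at the finer resolution of 1, 0.0116 with the median of all promoters set to 0, and -0.0408 in immune-like cells only, an alternative added after seeing the data. The count of genes 2-fold apart was 1 (Mrpl33) where only the gene start was used and 0 under the other alternatives. Within the unnamed cluster of 1511 and 35 cells it was 3 (3.85%), against 11.6% of all promoters, and 0 in the other clusters where it was counted. The 5 genes at least 1.2-fold higher became 8 with all merged regions, 1 with binary counts, 1 without immune-like cells at either resolution, 2 with the median of all promoters set to 0, 3 without genes that share a region with another gene, and 2 in immune-like cells only. Using starts of coding transcripts only, also added after seeing the data, changed none of these counts over all cells, and without the immune-like cells it left 0 genes at least 1.2-fold higher. The cause of these moves was not tested. Without immune-like cells the ratio of 49 of the 78 genes moved by more than its counting half-width. With 1 library per group, depth limits the single ratios to a precision of about 0.072, and the variation between cultures is unknown.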
